A study of Caenorhabditis elegans with 24 samples.

Results

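The comparison described here set the response of adult worms to temperature against that of larvae in a mutant without a working daf-16 gene. It used the 12 arrays of the daf-16(mgDF47) strain of the nematode Caenorhabditis elegans, chosen by their titles, of 24 arrays in all. For each gene the quantity was a difference of differences on the log2 scale, (adults at 25 °C minus adults at 15 °C) minus (larvae at 25 °C minus larvae at 15 °C), and 25434 genes with a single symbol were tested. One unit on that scale is a factor of 2. A positive value means a higher adult than larval response, and it can come from a rise in adults, a fall in larvae or both.

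The 12 mutant arrays formed 4 groups of 3 RNA preparations. Adults had been moved to 15 °C or 25 °C as late L4, the last larval stage, and were collected after 3 days there as day 3 adults, about 120 pooled per preparation. Larvae had grown at 15 °C or 25 °C from the embryo and were collected as late L4, about 300 pooled per preparation. All 4 groups carry the daf-16(mgDF47) allele, and the wild-type groups, WT in the titles, were treated in the same way. Since adults were collected by days and larvae by stage, in adults a direct effect of temperature and an advance of adult life cannot be told apart. For larvae, a direct effect and a shift of timing within late L4 cannot be told apart either. The 2 stages also differed in how long and in which part of life the worms had been at their temperature. Whole worms were pooled, and in such bulk RNA fewer cells of a type and less RNA per cell cannot be told apart.

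DAF-16 is a FOXO transcription factor that insulin-like signalling keeps out of the nucleus, and it switches on stress-defence and metabolic genes when signalling is low. Worms have no internal control of body temperature, and warmth speeds their growth, reproduction and ageing. Late L4 larvae are building the cuticle of the adult and finishing sperm production, whereas adults no longer moult and turn to eggs and yolk.

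The probe set of daf-16 itself read 8.02, 8.54 and 8.71 in adults at 15 °C and 8.72, 8.83 and 8.2 at 25 °C, and 6.57, 6.36 and 6.43 in larvae at 15 °C and 6.19, 6.4 and 5.99 at 25 °C. In the wild-type arrays it read 10.36 to 10.63 in adults and 8.5 to 8.78 in larvae, so every mutant array lay below every wild-type array of its stage. The sources used here do not say whether the probes cover sequence that the deletion removes. The stage difference in its response was not called, at 0.42 (SE 0.23, adjusted p = 0.28). Array medians of the mutants lay between 3.57 and 3.68 in adults and between 3.06 and 3.09 in larvae, and the lowest correlation within a group was 0.99. The stages had different distributions of values and appear to have been normalized separately, so levels were not compared across stages. Within groups the median SD of a gene was 0.14 for adults and 0.156 for larvae. Markers of neurons, intestine and body wall muscle lay above the median of all genes in every group, whereas 8 of 10 embryo markers lay below it in larvae and 2 of 10 in adults.

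In daf-16 mutants 1735 genes had a higher response in adults than in larvae and 817 had a lower one, which together are 10% of the genes tested (6.82% higher and 3.21% lower) at a limma adjusted p under 0.05. The difference reached a factor of 2 or more in 1065 of the higher and 259 of the lower genes. The median over all genes was -0.06 with a median SE of 0.22. The excess of higher calls depended on the scaling. They made up 68% of calls as reported, 58% when every array was centred on its median (1534 higher and 1112 lower) and 56.8% when all arrays were quantile-normalized together (1381 and 1050). Without adult preparation 2 at 25 °C the counts were 1308 higher and 509 lower.

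Most of the higher calls went with a rise in warm adults. Within stages, 3401 genes rose and 2857 fell in adults (24.6% of genes called, 13.4% and 11.2% by direction), and 691 rose and 479 fell in larvae (4.6%, or 2.72% and 1.88%). Rises were 54.3% of the adult calls as reported and 43.4% with every array centred on its median. The adult falls numbered 1884 without preparation 1 at 15 °C and 1573 without preparation 2 at 25 °C. The larval counts were 438 rises and 224 falls without preparation 1 at 15 °C, 427 rises without preparation 2 and 291 falls without preparation 3 at that temperature, and 374 and 228 without preparation 3 at 25 °C. Of the 1735 higher genes, 1465 rose in adults with no call in larvae, 95 fell in larvae with no call in adults, 65 rose in adults and fell in larvae, and 38 rose at both stages but more in adults. Another 71 were called at neither stage and 1 fell at both. Of the 817 lower genes, 534 fell in adults with no call in larvae, 163 rose in larvae with no call in adults, 23 fell in adults and rose in larvae, and 13 rose at both stages but more in larvae. A further 83 were called at neither stage and 1 fell at both. Effects were wider in adults, with an SD across genes of 0.501 in adults and 0.304 in larvae. Across genes the 2 effects were weakly related, with Pearson's r of 0.259 and Spearman's rho of 0.242 over the 25434 genes, which share arrays and are not independent. Of 548 genes called at both stages, 460 moved the same way and 88 opposite ways.

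**Figure D1:**
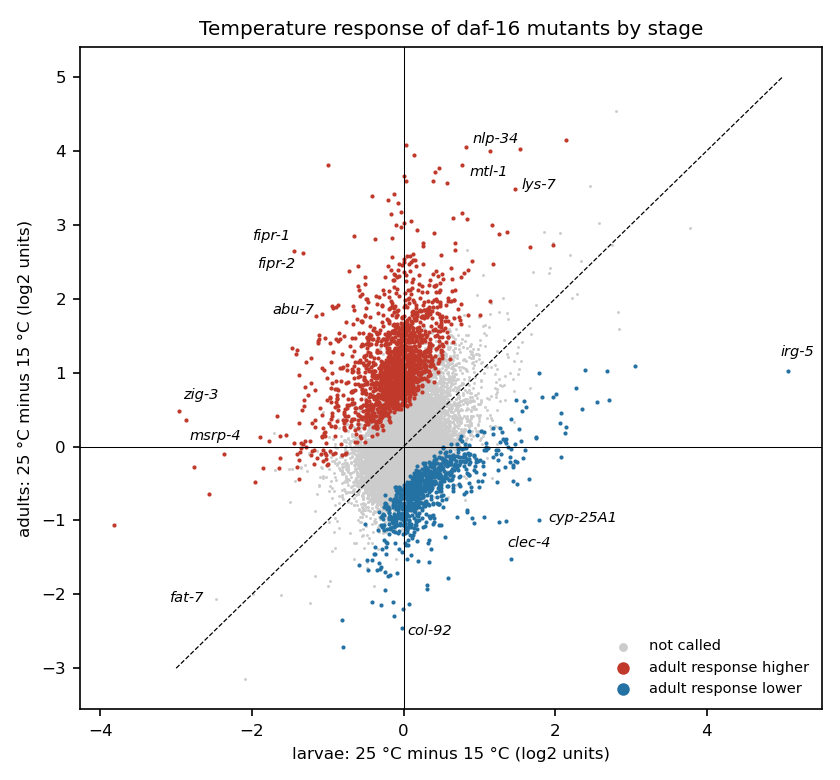
Temperature response (25 °C minus 15 °C, log2 units) of each gene in daf-16 larvae (x axis) and daf-16 adults (y axis). Each point is 1 of 25434 genes, coloured where limma called the difference between stages, and the dashed line marks equal responses. The 1735 higher genes lie mostly above 0 in adults and near 0 in larvae, and irg-5 stands at the far right with a larval rise of 5.08.

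Genes of the moult had the highest share of members with a higher adult response among the lists compared. The list of moulting and apical matrix genes, which encode the proteins laid down outside the epidermis as a new cuticle forms, had 26 of 47 members higher and 1 lower, against 6.82% and 3.21% of all genes. Its median difference was 0.78, with a median response of 1.02 in adults, where 33 rose and 0 fell, and of 0.1 in larvae, where 2 rose. Under the other settings tried, 21 to 28 members were higher.

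The lipocalin-related gene lpr-3 is an example from the matrix list. Its values were 5.61, 5.93 and 5.92 in adults at 15 °C and 7.97, 8.67 and 8.16 at 25 °C, and 7.54, 8.63 and 7.55 in larvae at 15 °C and 7.6, 7.84 and 6.46 at 25 °C. Adult groups were apart, larval groups overlapped, and the stage difference was 3.05 (SE 0.53, adjusted p = 0.00045). For mlt-11, which encodes a protein with protease inhibitor domains needed for moulting, the arrays read 4.75, 4.67 and 4.96 in adults at 15 °C and 6.48, 7.42 and 7.1 at 25 °C, and 8.21, 8.98 and 8.13 in larvae at 15 °C and 8.29, 8.69 and 6.82 at 25 °C. All 3 warm adult arrays lay above the cool ones, the larval groups overlapped with larva preparation 3 at 25 °C the lowest, and the difference was 2.72 (SE 0.59, adjusted p = 0.0036). The patched-related gene ptr-4, another gene needed to moult, differed by 2.41 (SE 0.32, adjusted p = 3.1e-05), from a response of 2.04 in adults and -0.37 in larvae. Other matrix genes called higher were acn-1, related to angiotensin-converting enzyme, at 2.14, the cuticlin cut-3 at 2.22, the zona pellucida domain gene noah-2 at 2.04, its relative noah-1 at 1.93 and fbn-1, a fibrillin relative, at 1.95.

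Markers of the epidermis overlapped with this set. The summed linear level of 10 markers of the epidermis of moulting larvae was 488 to 607 in adults at 15 °C and 1478 to 2554 in adults at 25 °C, and the groups did not overlap. In larvae the sums of 2948 to 4315 at 15 °C and 2900 to 3782 at 25 °C overlapped. Of the 10 markers, 7 were called higher and 0 lower. These 7 are also called members of the moulting list, so the markers are not separate evidence. The part of the epidermis in the result for moulting genes was not tested.

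Cuticle collagens, the structural proteins of the cuticle, gave calls of both signs. Of 170 measured, 17 were higher (10%) and 11 lower (6.47%), with a median difference of -0.01. The lower count fell to between 3 and 7 when any 1 of 10 of the 12 mutant preparations was left out, adult preparation 2 at 25 °C giving the lowest. The arrays of col-125 read 4.1, 4.67 and 4.82 in adults at 15 °C and 8.51, 8.38 and 7.48 at 25 °C, and 11.54, 11.38 and 11.4 in larvae at 15 °C and 11.46, 11.51 and 11.43 at 25 °C. Warm adults lay well above cool adults while the larval groups overlapped, and col-125 differed by 3.56 (SE 0.53, adjusted p = 0.00011). The collagens col-165 at 3.31 and sqt-3 at 3.0, the latter needed for body shape, showed the same order. In the opposite direction, col-92 read 6.97, 7.06 and 7.11 in adults at 15 °C and 4.52, 4.46 and 4.8 at 25 °C, and 10.5, 10.19 and 10.4 in larvae at 15 °C and 10.27, 10.41 and 10.35 at 25 °C. It fell in adults while the larval groups overlapped, and its difference was -2.42 (SE 0.45, adjusted p = 0.00082).

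Signalling and protease genes of the epidermis were also uneven. Hedgehog-related and patched-related genes, a large family in worms that is active in the epidermis, had 25 of 85 higher and 2 lower with a median difference of 0.21. The ligand-like genes wrt-10 (2.4), wrt-2 (2.28) and wrt-9 (2.18) rose in adults with no larval change beyond 0.1 either way. For grd-10 and grd-3 the differences of 2.1 and 1.95 came from both stages, with adult responses of 0.8 and 0.69 and larval ones of -1.3 and -1.25. Among 39 astacin proteases 5 were higher and 3 lower, with nas-9 at 2.56 the highest. Heterochronic genes, which time larval fates, had 3 of 19 higher: the non-coding RNA lep-5 (1.19), the nuclear receptor daf-12 (0.99) and lin-14 (0.9), the last of which lost its call in 5 of 23 settings.

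**Figure D2:**
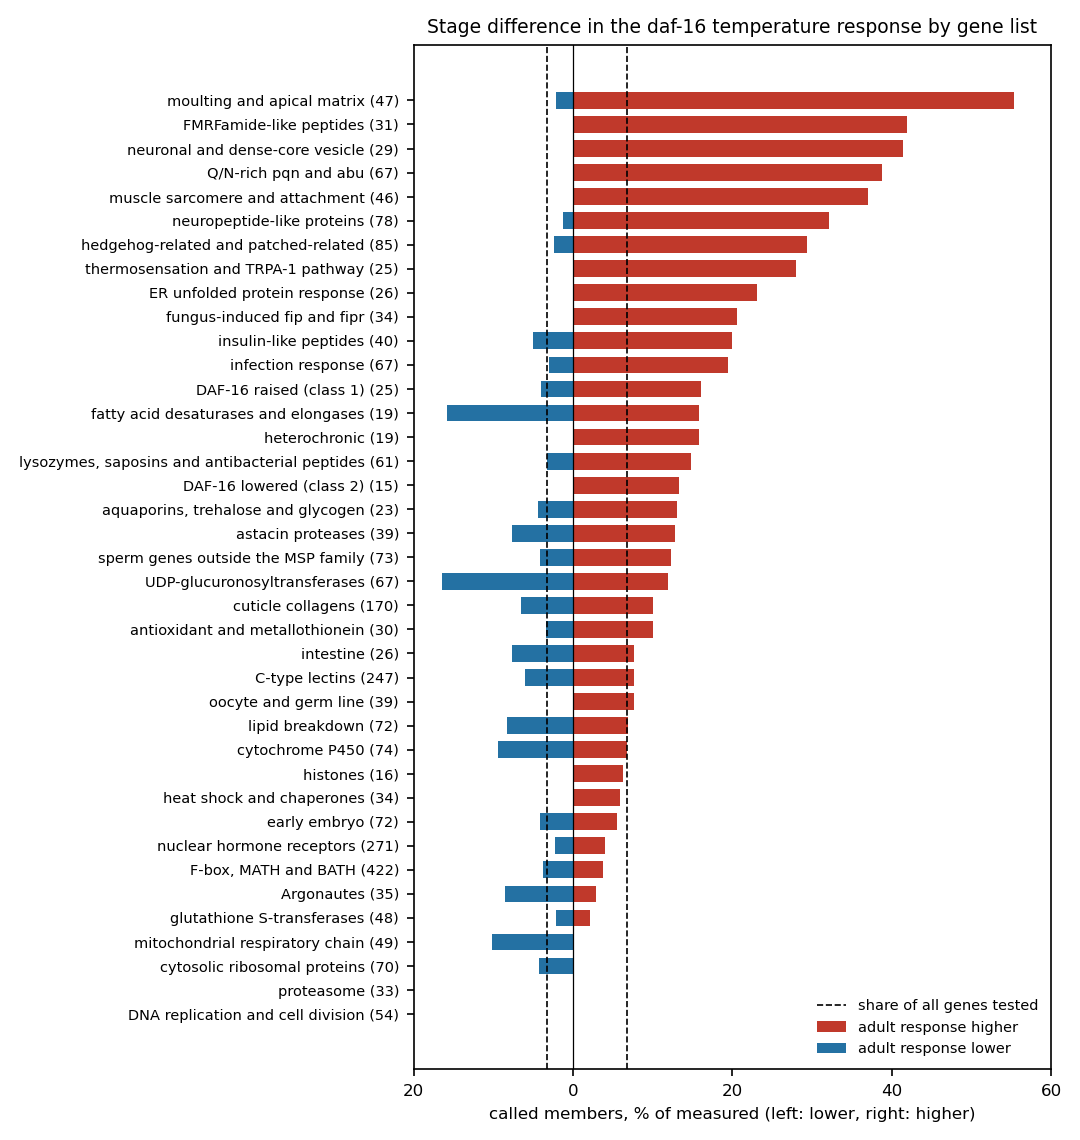
Share of measured members called higher (right, red) or lower (left, blue) for each gene list of 10 or more genes in the daf-16 stage difference, with the number measured in brackets. Dashed lines mark the shares of all genes, 6.82% and 3.21%. Moulting genes reach 55.3% higher, and DNA replication genes and the proteasome have 0 calls.

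Several genes of the pharynx, the muscular feeding organ, rose in warm adults and fell in warm larvae. The Q/N-rich pqn and abu families, many of whose members are made in the pharynx and are thought to line its cuticle, had 26 of 67 higher and 0 lower, with a median response of 0.17 in adults (27 rose, 2 fell) and -0.2 in larvae (1 rose, 6 fell). The family was added to the lists after its values had been seen, and some members are near-identical copies whose probes may cross-hybridize. In abu-7 the arrays gave 4.88, 4.9 and 5.19 in adults at 15 °C and 6.52, 7.25 and 6.6 at 25 °C, and 8.96, 8.44 and 7.73 in larvae at 15 °C and 7.55, 7.52 and 6.82 at 25 °C. Neither stage's groups overlapped, and the directions were opposite, with 2.88 (SE 0.42, adjusted p = 8.2e-05) between stages. The highest member, abu-14, was 4.68, 4.58 and 5.21 in adults at 15 °C and 8.16, 8.65 and 7.64 at 25 °C, and 9.18, 9.01 and 8.78 in larvae at 15 °C and 8.83, 8.77 and 8.75 at 25 °C. Here the larval groups overlapped, and the difference was 3.54 (SE 0.42, adjusted p = 9.6e-06). The list of genes of the endoplasmic reticulum unfolded protein response had 6 of 26 higher, but 5 of these were abu genes and the other was pek-1 (0.68), a kinase of that response, which was not called in adults at 0.12.

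Muscle genes also had higher calls and no lower ones. Of 46 genes of the sarcomere and its attachments, 17 were higher and 0 lower, with medians of 0.37 in adults and -0.15 in larvae. The largest were the pharyngeal myosin heavy chains myo-1 and myo-2. Values of myo-2 were 4.86, 5.43 and 5.04 in adults at 15 °C and 6.15, 6.89 and 6.48 at 25 °C, and 8.0, 7.88 and 7.87 in larvae at 15 °C and 6.91, 7.3 and 6.17 at 25 °C. Warm arrays were the higher ones in adults and the lower ones in larvae, without overlap, and the difference was 2.52 (SE 0.34, adjusted p = 3.6e-05). For myo-1 it was 2.57 (SE 0.35, adjusted p = 3.9e-05), for the pharyngeal troponin C gene tnc-2 2.24, and for the body wall myosin myo-3 2.07 (1.54 in adults, -0.53 in larvae). The giant muscle protein gene ttn-1 differed by 1.44. The summed level of 6 pharynx markers was 184 to 213 in cool and 337 to 568 in warm adults, and 698 to 751 in cool and 376 to 546 in warm larvae. These markers include myo-1, myo-2 and tnt-4, which also count among the called muscle genes, so the sum partly repeats them. The part of the pharynx in the muscle and pqn and abu results was not tested.

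Many neuropeptide genes rose in adults, and few were called in larvae. The FMRFamide-like peptides had 13 of 31 higher and 0 lower, with a median of 0.75 in adults, where 22 rose and 0 fell, and of 0.1 in larvae. The flp-1 arrays read 5.27, 5.48 and 5.5 in adults at 15 °C and 6.59, 6.79 and 7.13 at 25 °C, and 6.13, 6.15 and 5.93 in larvae at 15 °C and 5.61, 5.43 and 6.27 at 25 °C. Adult groups were apart and larval groups overlapped, and flp-1 differed by 1.72 (SE 0.27, adjusted p = 0.00017). Next came flp-3 (1.59), flp-9 (1.47) and flp-6 (1.35). This count depended on the scaling, with 6 higher members when all arrays were quantile-normalized together and up to 19 under other settings. The nlp neuropeptide-like genes had 25 of 78 higher and 1 lower. Under that scaling 13 were higher, and 15, 15 and 16 were without adult preparation 1 at 15 °C, adult preparation 2 at 25 °C and larva preparation 2 at 25 °C.

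Among nlp genes nlp-34, a glycine- and tyrosine-rich peptide gene, had the largest difference. It read 4.02, 6.18 and 4.99 in adults at 15 °C and 8.75, 9.38 and 9.23 at 25 °C, and 5.61, 6.22 and 5.85 in larvae at 15 °C and 6.54, 6.45 and 7.17 at 25 °C. Warm arrays were above cool ones at both stages, and the difference was 3.23 (SE 0.61, adjusted p = 0.0011), although cool adults spread over more than 2 units. The epidermal antimicrobial peptide gene nlp-29 differed by 1.53, from 0.36 in adults and -1.16 in larvae.

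Of 29 genes of neurons and dense-core vesicles, 12 were higher and 0 lower. They include unc-25, the enzyme that makes the transmitter GABA, at 1.44 (SE 0.25, adjusted p = 0.00043), the neuronal exchange factor rgef-1 (1.23), the synapsin snn-1 (1.17), the peptide-processing chaperone sbt-1 (1.16) and the prohormone convertase egl-3 (1.04). The summed level of 10 neuron markers was 3448 to 3667 in cool and 4286 to 4800 in warm adults, and 3190 to 3444 in cool and 3533 to 4043 in warm larvae. Neither stage's groups overlapped, and 4 of the 10 were called higher. These were rab-3, unc-64, egl-3 and rgef-1, which also count among the 12 genes above and are not separate evidence. The part of the neuron markers in the neuronal and neuropeptide results was not tested.

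Insulin-like peptides, the ligands of the pathway that daf-16 ends, had 8 of 40 higher and 2 lower, with a median difference of 0.03. The higher count was 5 under joint quantile normalization, without adult preparation 2 at 25 °C or without larva preparation 1 at 15 °C. The agonist gene daf-28 differed by 1.91 (adjusted p = 4.2e-05), and ins-7, another agonist gene, by 1.54 with rises of 2.34 in adults and 0.8 in larvae. The lower ones were ins-23 (-1.05) and ins-5 (-1.07), and the lower count was 1 on leaving out any 1 of 7 of the 12 mutant preparations. Of 25 genes of thermosensation and the TRPA-1 pathway 7 were higher. They include ttx-1 (1.67) and ceh-14 (1.34), homeobox genes of the AFD thermosensory neuron, cmk-1 (1.42), a calcium-dependent kinase, and slo-1 (1.12), a potassium channel. The others were tax-6 (0.55), a calcineurin subunit, pkc-2 (0.52), a protein kinase C, and the nuclear receptor daf-12, also counted among the heterochronic genes. The cold-sensitive channel gene trpa-1 was not called at 0.34 (adjusted p = 0.41).

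**Figure D3:**
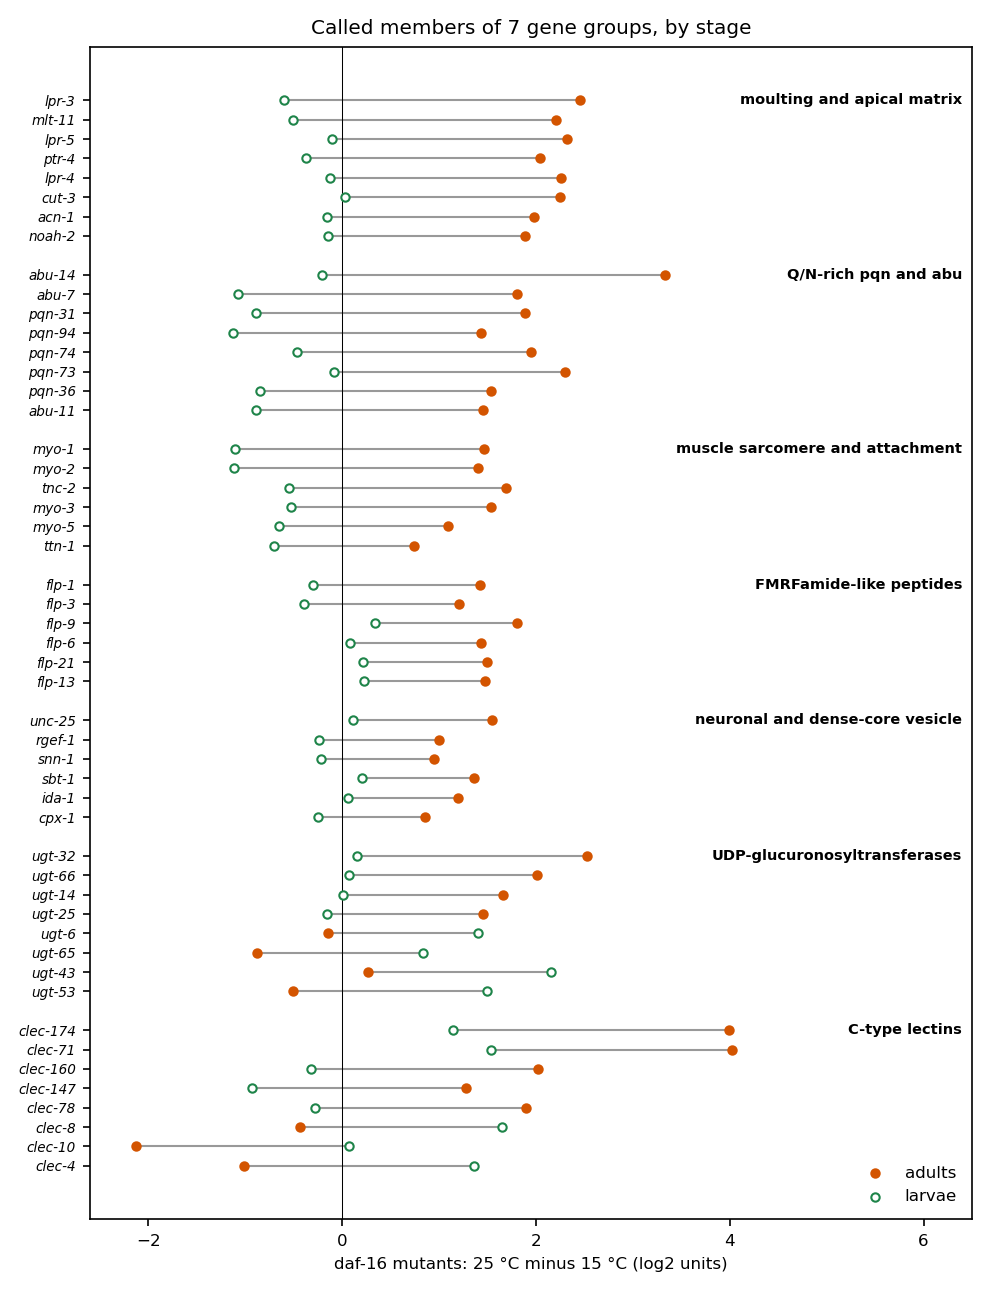
Response to temperature (25 °C minus 15 °C, log2 units) in daf-16 adults (filled) and larvae (open) for the called members with the largest stage differences in 7 gene groups. In moulting, pqn and abu and muscle genes the larval points lie at or left of 0 apart from cut-3, while for ugt-6, ugt-43, ugt-53, ugt-65, clec-4, clec-8 and clec-10 the larval points lie to the right of the adult ones.

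Defence genes held calls in both directions, but only their higher share stood above that of all genes. The caenacin gene cnc-6 read 3.67, 3.85 and 3.31 in adults at 15 °C and 6.74, 6.95 and 7.03 at 25 °C, and 1.11, 1.31 and 1.27 in larvae at 15 °C and 1.01, 1.26 and 1.2 at 25 °C. The larval values lay below the median of all genes and overlapped, and the difference was 3.37 (SE 0.2, adjusted p = 1.7e-09). The antibacterial factor genes abf-2 (3.02) and abf-5 (1.96) had larval responses of 0.01 and 0.03. The lysozyme gene lys-7 rose at both stages, by 3.48 in adults and 1.48 in larvae, with a difference of 2.01 (SE 0.34, adjusted p = 0.0004). Of 61 genes for lysozymes, saposins and antibacterial peptides, 9 were higher (14.8%, against 6.82% of all genes) and 2 lower (3.28%, near the 3.21% of all genes). The lower ones were spp-9 (-2.17) and spp-18 (-1.62).

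The fungus-induced genes fipr-1 and fipr-2 moved in opposite directions at the 2 stages. Arrays of fipr-2 read 4.89, 5.2 and 4.77 in adults at 15 °C and 7.18, 7.59 and 7.94 at 25 °C, and 6.75, 6.03 and 6.93 in larvae at 15 °C and 4.74, 5.46 and 5.52 at 25 °C. Groups were apart at both stages, and the difference was 3.95 (SE 0.43, adjusted p = 4.1e-06). For fipr-1 it was 4.09 (SE 0.56, adjusted p = 4.2e-05), with a rise of 2.64 in adults and a fall by 1.45 on the log2 scale in larvae. Because fipr genes have close copies, signal may be shared among them. Of 34 fip and fipr genes, a family also added after values had been seen, 7 were higher and 0 lower.

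The infection response gene irg-5 had the largest difference in the other direction. Its arrays read 6.23, 6.41 and 6.54 in adults at 15 °C and 7.07, 7.25 and 7.93 at 25 °C, and 6.38, 6.22 and 5.9 in larvae at 15 °C and 11.1, 11.32 and 11.33 at 25 °C. It rose at both stages without overlap, far more in larvae, and the difference was -4.06 (SE 0.39, adjusted p = 1.3e-06). In the list of infection response genes irg-5 was 1 of 2 lower members (2.99%, near the 3.21% of all genes). Beside them 13 of 67 were higher (19.4%, against 6.82%).

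Families of lectins and of detoxification enzymes held calls of both signs. C-type lectins, a large family of secreted carbohydrate-binding proteins, had 19 of 247 higher (7.69%) and 15 lower (6.07%), so their higher share was close to that of all genes. The lectin gene clec-4 read 6.03, 6.74 and 6.97 in adults at 15 °C and 5.27, 5.47 and 5.96 at 25 °C, and 6.08, 5.98 and 5.86 in larvae at 15 °C and 7.48, 7.06 and 7.45 at 25 °C. It fell in adults and rose in larvae without overlap at either stage, and differed by -2.37 (SE 0.3, adjusted p = 2.3e-05). For clec-10 the difference of -2.2 (SE 0.32, adjusted p = 8.6e-05) came from a fall in adults, with larval groups that overlapped. At the other end, clec-71 rose at both stages, by 4.02 in adults and 1.54 in larvae, and clec-174 rose by 3.99 in adults with a larval response of 1.14 that was not called.

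UDP-glucuronosyltransferases, enzymes that attach sugars to toxins and hormones, had 8 of 67 higher and 11 lower, or 7 lower without larva preparation 2 at 15 °C. Within stages 16 rose and 4 fell in adults, against 13.4% and 11.2% of all genes. In larvae 15 rose and 3 fell, against 2.72% and 1.88%. The adult rises of ugt-32 (2.53), ugt-66 (2.01) and ugt-14 (1.66) stood beside larval responses of 0.15, 0.07 and 0.01. In contrast ugt-53 read 6.53, 6.41 and 6.44 in adults at 15 °C and 5.84, 5.99 and 6.03 at 25 °C, and 3.47, 3.09 and 3.9 in larvae at 15 °C and 4.36, 5.14 and 5.44 at 25 °C. Its larval groups were apart with the warm arrays higher. Its adult groups were apart with the warm arrays lower, but the adult response of -0.51 was not called. The difference was -2.0 (SE 0.33, adjusted p = 0.00027). Likewise ugt-43 rose by 2.15 in larvae with an adult response of 0.27.

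Among cytochromes P450, which oxidize toxins and lipids, 5 of 74 were higher (6.76%, near the 6.82% of all genes) and 7 lower (9.46%, against 3.21%). The arrays of cyp-25A1 gave 7.15, 7.35 and 7.52 in adults at 15 °C and 6.44, 6.17 and 6.4 at 25 °C, and 3.5, 2.93 and 3.71 in larvae at 15 °C and 4.77, 5.16 and 5.57 at 25 °C. Warm arrays were the lower ones in adults and the higher ones in larvae, without overlap, and the difference was -2.78 (SE 0.35, adjusted p = 2.1e-05). The same signs were seen for cyp-35A5, with -1.04 in adults and 0.93 in larvae. Glutathione S-transferases had 1 of 48 higher and 1 lower (2.08% each), both below the shares of all genes.

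Some of the largest differences lay mostly in the larval response. The gene zig-3, which encodes a secreted immunoglobulin-domain protein, read 6.95, 6.9 and 7.19 in adults at 15 °C and 7.3, 7.59 and 7.62 at 25 °C, and 6.54, 6.67 and 6.54 in larvae at 15 °C and 3.4, 3.32 and 4.15 at 25 °C. The warm larvae lay far below the cool ones. In adults the warm arrays lay above the cool ones, but the response of 0.49 was not called. The difference was 3.45 (SE 0.32, adjusted p = 1.1e-06). In the same way msrp-4 fell by 2.87 on the log2 scale in larvae and differed by 3.23 (SE 0.4, adjusted p = 1.9e-05). Conversely folr-1, a folate receptor gene, rose by 2.08 in larvae with an adult response of -0.14. The folate transporter gene folt-2 had instead an adult response of -1.88 and a difference of -2.19.

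**Figure D4:**
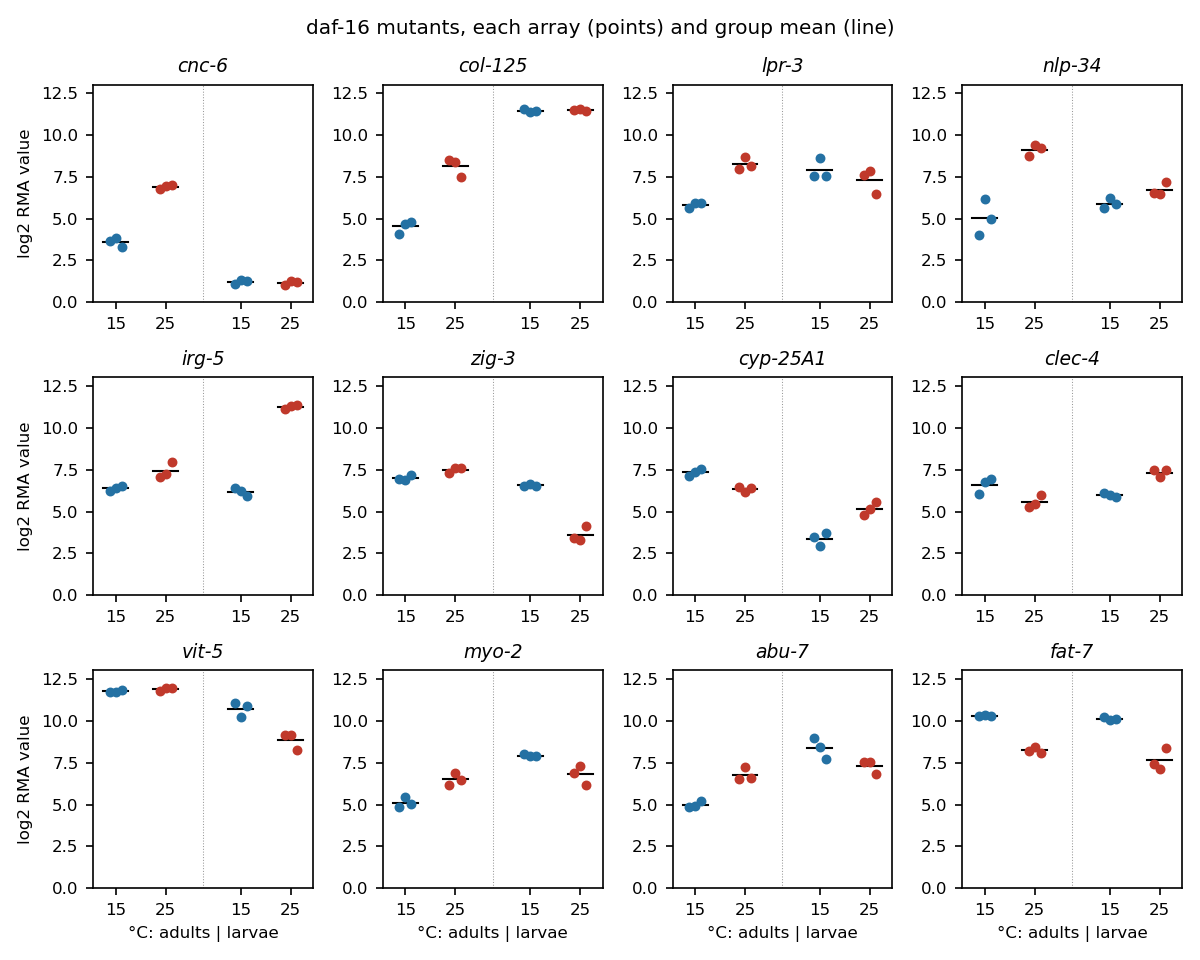
Log2 RMA values of 12 genes in each daf-16 array (points) with group means (lines), for adults on the left and larvae on the right of each panel. Adults rise with warmth in cnc-6, col-125, lpr-3 and nlp-34, larvae rise in irg-5, cyp-25A1 and clec-4 and fall in zig-3, vit-5, myo-2 and abu-7, and fat-7 falls at both stages. Levels are not comparable between stages.

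Among reproductive genes, yolk protein genes had 2 of 5 higher and 1 lower. The vit-5 arrays read 11.74, 11.74 and 11.83 in adults at 15 °C and 11.79, 11.95 and 11.94 at 25 °C, and 11.08, 10.24 and 10.86 in larvae at 15 °C and 9.13, 9.13 and 8.25 at 25 °C. Adult groups overlapped while warm larvae lay below cool ones, and the difference was 2.02 (SE 0.44, adjusted p = 0.0036). For vit-6 it was 1.22, again from a larval fall (-1.08), whereas vit-1 differed by -1.28 and lost its call without larva preparation 2 at 15 °C (adjusted p = 0.051). Genes of oocytes and the germ line had 3 of 39 higher (7.69%, against 6.82% of all genes) and 0 lower, among them the eggshell genes perm-2 (1.35) and perm-4 (0.72). Leaving out 1 preparation gave 1 to 5 higher, the lowest without larva preparation 1 at 15 °C or larva preparation 3 at 25 °C and the highest without larva preparation 1 at 25 °C, and perm-4 lost its call in 3 of 23 settings. Their median was -0.12 in adults and -0.35 in larvae, where 7 fell.

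Of the 4 major sperm protein genes with a probe set of their own, msp-78 (3.65) and msp-38 (1.59) were higher. The call of msp-38 was lost in 5 of 23 settings, without adult preparation 2 at 15 °C, adult preparation 1 or 3 at 25 °C, larva preparation 1 at 15 °C or larva preparation 3 at 25 °C. These genes are near-identical copies, so neither value belongs surely to 1 gene. Of 73 other sperm genes, 9 were higher and 3 lower, including nspd-1 (2.55) and nspd-7 (2.53), also close copies. Early embryo genes had 4 of 72 higher (5.56%, against 6.82% of all genes) and 3 lower (4.17%, against 3.21%). Within stages 15 of the 72 rose and 4 fell in adults, against 13.4% and 11.2% of all genes. In larvae 7 rose and 0 fell, against 2.72% and 1.88%. The part of embryos in the adult responses was not tested. DNA replication and cell division genes had 0 of 54 called by limma, with 3 at an unadjusted p under 0.05. Within stages, 8 of them fell and 1 rose in adults and 4 fell in larvae.

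Ribosomal proteins had 0 of 70 higher and 3 lower (4.29%, against 3.21% of all genes) with a median difference of -0.24. Their lower count was 0 to 4 on leaving out 1 preparation, with 0 without adult preparation 1 at 15 °C, larva preparation 3 at 15 °C or larva preparation 3 at 25 °C and 1 without adult preparation 2 at either temperature. Respiratory chain genes had 0 of 49 higher and 5 lower (10.2%) with a median of -0.25. The respiratory chain count was 0 without adult preparation 2 at 25 °C and 1 to 3 without 8 of the other preparations. The proteasome had 0 of 33 called by limma, with 6 at an unadjusted p under 0.05 and a median of -0.18. Heat shock and chaperone genes had 2 of 34 higher (5.88%, against 6.82% of all genes) and 0 lower. Within stages, 12 of the 34 fell and 4 rose in adults, against 11.2% and 13.4% of all genes. In larvae 5 fell and 0 rose, against 1.88% and 2.72%, and the median response was -0.24 at each stage. The genes with a higher adult response were the small heat shock gene hsp-43 at 1.62 (SE 0.21, adjusted p = 2.9e-05) and hsp-12.2 at 1.37. For hsp-43 the difference came from a rise by 0.76 in adults and a fall by 0.86 on the log2 scale in larvae. The heat-inducible hsp-16.2 differed by 0.07 (adjusted p = 0.89) and hsp-70 by 1.24 (adjusted p = 0.14), neither called. The hsp-70 difference passed the threshold in 4 of 22 settings, among them the one without adult preparation 1 at 25 °C (adjusted p = 0.014).

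Some known targets of DAF-16 responded to temperature in these mutants. Of 25 genes that DAF-16 raises, 4 were higher (16%, against 6.82% of all genes) and 1 lower (4%, against 3.21%), and 20 were not called. Within stages 7 rose and 1 fell in adults, against 13.4% and 11.2% of all genes. In larvae 2 rose and 0 fell, against 2.72% and 1.88%. The metallothionein gene mtl-1 read 5.49, 5.45 and 5.34 in adults at 15 °C and 9.29, 9.3 and 9.12 at 25 °C, and 1.24, 1.69 and 1.83 in larvae at 15 °C and 2.0, 1.91 and 3.19 at 25 °C. Adults rose without overlap, all larval arrays but 1 lay below the median of all genes, and the difference was 3.03 (SE 0.44, adjusted p = 7.8e-05). The superoxide dismutase gene sod-3 differed by 0.15 (adjusted p = 0.76). The desaturase gene fat-7 read 10.27, 10.33 and 10.28 in adults at 15 °C and 8.19, 8.46 and 8.05 at 25 °C, and 10.2, 10.03 and 10.12 in larvae at 15 °C and 7.4, 7.14 and 8.37 at 25 °C. It fell at both stages without overlap, and the difference of 0.42 (SE 0.38, adjusted p = 0.56) was not called, with an interval of -0.37 to 1.21. Among 19 desaturases, elongases and fatty acid synthase genes, 3 were higher (fasn-1, fat-3, fat-6) and 3 lower (elo-4, elo-6, elo-9), with sizes from 0.66 to 0.93. The call of fat-3 was lost in 10 of 23 settings and that of fasn-1 without adult preparation 2 at 25 °C (adjusted p = 0.053).

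The same contrast in wild-type worms placed these differences beside those of animals with daf-16. In the wild type 2202 genes were higher and 1296 lower, 13.8% of genes (8.66% and 5.1%). Of the 1735 genes higher in the mutant, 1315 were also higher in the wild type, which is 75.8% of the mutant set and 59.7% of the wild-type set. Of the 817 lower genes, 422 were also lower, 51.6% of the mutant and 32.6% of the wild-type set, and 2 genes were called in opposite directions. The sign was shared by 2492 of the 2552 genes (97.6%). Over all genes the 2 differences had Pearson's r of 0.765 and Spearman's rho of 0.613, across genes that are not independent.

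The difference between genotypes was itself tested as a contrast of all 8 groups, and 2 genes were above and 7 below the wild type in it by limma, 0.0354% of genes (0.00786% and 0.0275%). At an unadjusted p under 0.05 there were 1264. The median SE was 0.32. In simulated data with 200 changed genes and no other effect, this contrast recovered 18% of changes of 1 unit and 84% of changes of 2 units. The adjusted threshold depends on how many genes are called, so these shares need not hold for the arrays. Smaller differences between genotypes may have been missed with 3 arrays a group. The 7 became 19 without wild-type adult preparation 1 at 25 °C, 16 without preparation 3 of that group and 11 without mutant adult preparation 2 at 25 °C, and the 2 became 1 without any of 14 preparations. The gene with the largest value was icmt-1, a carboxyl methyltransferase gene, with a stage difference of 0.18 in the mutant against 3.95 in the wild type. Its mutant arrays read 3.01, 3.04 and 3.12 in adults at 15 °C and 2.57, 3.1 and 3.12 at 25 °C, and 4.07, 3.68 and 3.69 in larvae at 15 °C and 3.43, 3.39 and 3.7 at 25 °C, and the groups overlapped at both stages. The serotonin receptor gene ser-4 had -0.14 against 1.5. For moulting genes 26 were higher in the mutant and 25 in the wild type, with 0 of the 47 called apart between genotypes, and for muscle the counts were 17 and 19. The stage difference of myo-2 was 2.52 in the mutant and 1.27 in the wild type (adjusted p of the genotype difference 0.91), that of vit-5 2.02 and 0.18 (0.78), and that of mtl-1 3.03 and 1.39 (0.89).

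**Figure D5:**
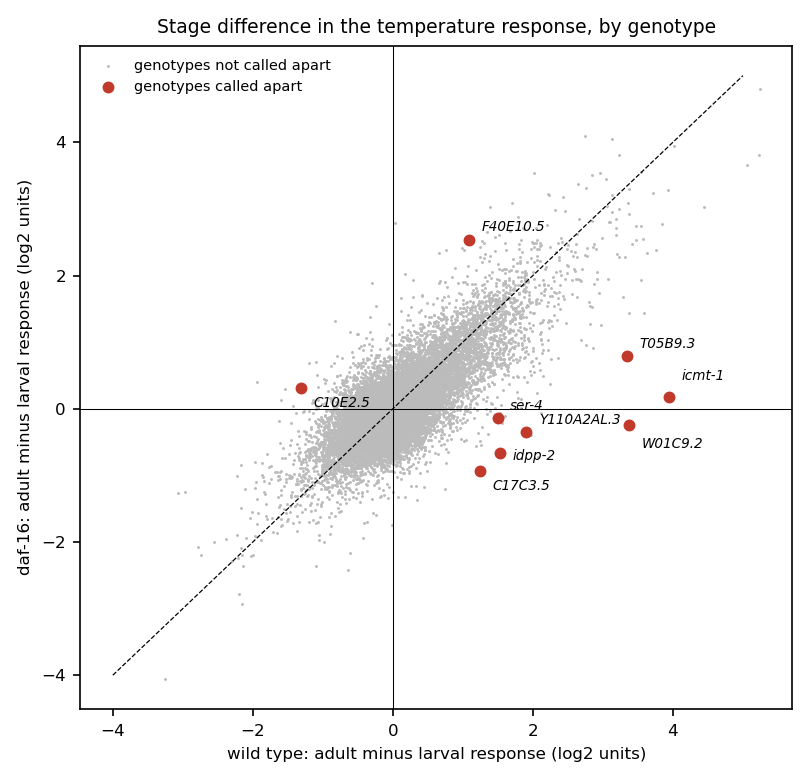
Adult minus larval temperature response (log2 units) of each gene in the wild type (x axis) and in daf-16 mutants (y axis), with the dashed line marking equality. The 9 red genes were called apart between genotypes by limma, 7 of them below the line, and r was 0.765 over all genes.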

How the data were processed

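The deposited table holds log2 values that the authors made with RMA, per the submitters' processing notes, from Affymetrix C. elegans Gene 1.1 ST arrays, 1 per RNA preparation. RMA corrects background, quantile-normalizes and summarizes the probes of a probe set. Its version and the genome build are not given in the sources used here. Quantile normalization within a stage removes global shifts, so responses are relative to the other genes, and separate runs for the stages leave only within-stage differences comparable.

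Of 29317 probe sets, 25484 had 1 gene symbol in the platform table, 700 several and 3133 none. After leaving out 3 probe sets blank in adults and 47 for genes with a brighter probe set, 25434 genes were tested without a filter on dim genes. Arrays give no read depth, and 3 arrays a group limit the precision.

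With R 4.3.3 and limma 3.58.1, the means of 8 groups were fitted over 24 arrays (16 residual and 6.06 prior degrees of freedom). P-values are two-sided, from limma's moderated test, adjusted by Benjamini-Hochberg within each of 7 comparisons, and a gene was called under 0.05. SE and intervals are limma's. The simulated data had 25434 genes, of which 200 were changed and the rest had no effect. There the main contrast recovered 6% of changes of 0.5 units, 58% of 1 unit and 98% of 2 units, with 4.38% of calls false. In the arrays 10% of genes were called, and the adjusted threshold depends on that share. The simulated rates therefore need not hold for the arrays.

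The members and the 39 gene lists were chosen with earlier results of these data known, and 2 more lists were added after their values were seen. Named genes are daf-16, the 12 largest called differences in each direction, the 6 largest with opposite responses in each order, up to 4 called members of each list, 12 sentinels and the genes called between genotypes. Names were taken where a gene had letters, a hyphen and a number and a group above its stage's median, and further list members were named after their values were seen. The labels do not say whether preparations were separate cultures, so p-values measure the spread between preparations, which may be technical. Alternatives changed the normalization, the filter, the prior, array weights, the fitted samples, the replicate block and each preparation in turn. Promoters and protein sequences were not analysed here.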

Additional observations from a re-analysis of the deposited data

Results flagged for a closer look

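The stage difference in the temperature response was tested directly in daf-16 mutants, and 1735 genes had a higher and 817 a lower response in adults than in larvae by limma. A further 118 of the 3833 probe sets without a single gene symbol, which enter no other comparison here, were called in the same contrast, 66 higher and 52 lower.

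For 9 genes the stage difference itself differed between genotypes in a test of the 3-way contrast, mutant minus wild type. Above the wild type were C10E2.5 by 1.62 and F40E10.5 by 1.45. Below it were icmt-1 (-3.77), W01C9.2 (-3.62), T05B9.3 (-2.56), Y110A2AL.3 (-2.26), idpp-2 (-2.2), C17C3.5 (-2.19) and the serotonin receptor gene ser-4 (-1.64). The limma adjusted p of these genes ran from 0.0025 to 0.037.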

How the results depend on the processing

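Over 23 settings at most per gene, 140 of 176 called named genes kept their call and 36 lost it at least once, with 0 reversed. Leaving out 1 preparation at a time gave 1308 to 1717 higher and 509 to 826 lower genes in the stage difference, 2647 to 3450 and 1573 to 2970 in adults, 374 to 657 and 224 to 492 in larvae, and 1 to 3 and 5 to 19 between genotypes. With array weights the lower or falling counts became 1536 for the stage difference, 4736 in adults, 719 in larvae and 22 between genotypes, and a trended robust prior gave 11 for the last. All other counts stayed within 1.5 times those reported. Preparation numbers did not pass the limit of 0.1 for pairing in mutants (correlations of deviations 0.02 to 0.22 in adults and 0.04 to 0.19 in larvae), and arrays correlated best with their own number in 1 of 3 adult and 3 of 3 larval cases. In wild-type adults all 3 numbers passed (0.26 to 0.34), and in wild-type larvae they did not (-0.03 to 0.25). A replicate block within genotype and stage gave 2043 higher and 1132 lower genes in the stage difference, 3678 and 3262 in adults, 947 and 592 in larvae, and 2 and 9 between genotypes. No scaling moved the median of all genes by over 0.1, the largest shift being -0.06 in the stage difference and 0.083 in adults. The causes of these changes were not tested. In larvae, 335 (19.3%) of the higher and 221 (27%) of the lower genes lay below the median of all genes at both temperatures, against 48.7% of all genes.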

Other observations

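The remaining gene lists can be read against the shares of all genes in the daf-16 stage difference, 6.82% higher and 3.21% lower. Of 271 nuclear hormone receptors 11 were higher and 6 lower, with nhr-43 at 1.5 the largest, and of 422 F-box, MATH and BATH genes, many of which encode adaptors for protein degradation, 16 were higher and 16 lower. Of 35 Argonautes and their partners, which carry small RNAs, 1 was higher and 3 were lower (8.57%). The lower ones were wago-11 (-1.05) and sago-1 (-0.84), both Argonautes, and the nuclear RNA interference gene nrde-2 (-0.82). The median Argonaute response was -0.29 in adults, where 11 fell, and -0.24 in larvae, where 5 fell. Of all genes, 11.2% fell in adults and 1.88% in larvae.

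Lipid breakdown genes had 5 of 72 higher and 6 lower, from ech-9 at 2.28 to acox-1.3, a peroxisomal acyl-CoA oxidase gene, at -1.76, and leaving out any 1 of several preparations lowered either count to 3. Antioxidant and metallothionein genes had 3 of 30 higher and 1 lower, including the extracellular superoxide dismutase gene sod-4 at 1.21. Their lower count ran from 0 to 2 on leaving out 1 preparation and moved by over 1.5 times in 9 of 12 cases. Genes for aquaporins, trehalose and glycogen had 3 of 23 higher and 1 lower, with the water channel gene aqp-2 at 1.85. Of these, tps-1 (0.75) lost its call in 14 of 23 settings and the lower gene aqp-4 (-0.79) in 3 of 23. Intestine genes had 2 of 26 higher and 2 lower, counts that ran from 0 to 3 and from 1 to 2 on leaving out 1 preparation, each moving by over 1.5 times in 10 of 12 cases. Of 16 histone genes hil-7, a linker histone gene, was the 1 called, at 2.14. Of 15 genes that DAF-16 lowers, vit-5 and ins-7 were higher (13.3%) and 0 lower. Within stages 9 of the 15 rose and 1 fell in adults, against 13.4% and 11.2% of all genes. In larvae 5 rose and 1 fell, against 2.72% and 1.88%.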
